A study of Mus musculus with 2 samples.

Results

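The 719 genes described here are the protein-coding genes of mouse chromosome 9 that had a mean of at least 1 CPM (read counts scaled to a common library total) over 2 tumour libraries. They were 719 of the 1210 protein-coding genes that the deposited table lists for the chromosome, out of 54532 rows in all. They were chosen by their measured CPM in these libraries, and the chromosome by its median ratio between them, so that ratio is given as a description and is not tested. In order of start they run from position 3335140 to an end at 124476898 (mm10). Of the 491 genes left out, 267 had no count in either library. Among the 491 were all 132 rows for olfactory receptors, and 0 of those rows reached the mean of 1 CPM. At the threshold, Zfp105 was the lowest member, with 15 counts under the vector label and 22 under the IRF8 label (mean 1.01 CPM). The next row below it, 9530077C05Rik, had 20 and 17 counts (mean 0.985 CPM), and Sln, a regulator of the muscle calcium pump, had 0 and 34 (mean 0.982 CPM).

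RNA was taken from 2 tumours, 1 for each group, grown from Hepa1-6, a mouse hepatocellular carcinoma line, in C57bl/6 mice. One tumour came from cells with a vector control lentivirus (GFP and Puro), the other from cells with a lentivirus for IRF8 overexpression, and they grew on either side of the same animal. Both groups thus shared the cell line, the host strain and the use of a stable lentiviral transfection, and neither age nor time of harvest was given. The comparison named by the labels is of tumours with and without overexpression of IRF8, a transcription factor of interferon responses and of myeloid and B cells. Since tumour and host are both mouse, their reads could not be separated. With 1 library for each group there is no replicate check, every ratio compares these 2 libraries and not the conditions, and no p-value is given.

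Irf8 (chromosome 8, 120736358 to 120756694, plus strand) had 4178 counts (207 CPM) under the vector label and 2578 (149 CPM) under the IRF8 label. Its log2 ratio of -0.51 (95% counting interval -0.58 to -0.44) goes against the label, so the libraries are called by their labels throughout, and each pair of values below gives the vector label first. Whether labels or columns were exchanged, or reads of host immune cells set the Irf8 level, was not tested. With the labels exchanged every log2 ratio below would turn its sign, and the chromosome 9 median of 0.19 would be -0.19. Total counts were 20223649 (vector) and 17316607 (IRF8), so that 3 counts, the limit a count of 0 allows, are 0.148 and 0.173 CPM. Hepatocyte markers, which a liver tumour should carry, were present in both libraries but differed: 14 of 22 measured were lower and 2 higher in the IRF8-labelled library. For markers, higher and lower mean a log2 ratio of at least 1 in size with an interval that leaves out 0. Of all 13073 measured protein-coding genes, 2.34% were higher and 2.75% lower in that sense. Skeletal muscle markers were higher for 13 of 14 measured, and 4 of the 18 listed, Xirp1, Klhl40, Myl3 and Tnnc2, were at 0 in the vector-labelled library. Of the other marker lists, those for B and plasma cells and for adipocytes had 4 of 6 and 6 of 7 measured genes higher, that for mast cells had 5 of 6 lower, that for T cells had 1 of 13 lower, and those for macrophages, neutrophils, fibroblasts, endothelial and erythroid cells had none in either direction. The B and plasma cell list summed to 58.0 and 179 CPM. In contrast to its count of higher genes, the adipocyte list summed to 335 CPM under the vector label and 283 under the IRF8 label. The part of these cell types in the ratios below was not tested. Without the listed genes the chromosome 9 median described next was 0.19 and its offset from the other autosomes 0.21. No list had more than 6 genes on the chromosome, so leaving them out could hardly move its median. Unlisted genes of the same cell types stayed in, so these values do not show what part the cell types had.

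Genes along a chromosome are transcribed from separate promoters, and neighbours often belong to families that arose by local duplication. Mouse chromosome 9 holds several such groups, among them a cluster of matrix metalloprotease genes near its proximal end, the Apoa1 apolipoprotein cluster and a distal cluster of chemokine receptor genes. In liver and hepatocellular tumours the chromosome is also known for genes of detoxification and of plasma proteins, such as Cyp1a1, Gclc and Trf.

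The sequences of 5 promoters are shown because Mmp10 stood on the other side of 0 from its cluster neighbours Mmp13, Mmp12 and Mmp3, and because Apoa1 was the member with the most reads among those that were lower. They are up to 250 bases before the transcription start on the plus strand of chromosome 9, from RefSeq (GRCm38.p6), at chr9:7272264-7272513 (Mmp13), chr9:7344147-7344380 (Mmp12), chr9:7445572-7445821 (Mmp3), chr9:7502092-7502341 (Mmp10) and chr9:46228380-46228579 (Apoa1). Each ends before the earlier of the RefSeq start and the deposited gene start, which leaves 234 bases for Mmp12 and 200 for Apoa1. Capitals mark matches to the motifs searched.
Mmp13: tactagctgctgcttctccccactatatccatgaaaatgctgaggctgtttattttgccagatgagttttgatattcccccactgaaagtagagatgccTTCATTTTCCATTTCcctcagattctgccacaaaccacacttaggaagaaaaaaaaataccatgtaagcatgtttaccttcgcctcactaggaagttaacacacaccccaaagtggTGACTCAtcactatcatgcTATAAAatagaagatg
Mmp12: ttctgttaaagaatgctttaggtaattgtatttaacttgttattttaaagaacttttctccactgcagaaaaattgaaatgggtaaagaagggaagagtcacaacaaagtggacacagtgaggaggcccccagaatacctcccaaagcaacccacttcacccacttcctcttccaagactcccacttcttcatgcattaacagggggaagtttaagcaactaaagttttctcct
Mmp3: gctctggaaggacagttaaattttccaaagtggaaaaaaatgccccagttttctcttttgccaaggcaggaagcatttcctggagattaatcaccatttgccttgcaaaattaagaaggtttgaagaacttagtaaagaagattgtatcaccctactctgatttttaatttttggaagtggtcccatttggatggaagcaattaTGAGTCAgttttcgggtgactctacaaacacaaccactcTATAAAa
Mmp10: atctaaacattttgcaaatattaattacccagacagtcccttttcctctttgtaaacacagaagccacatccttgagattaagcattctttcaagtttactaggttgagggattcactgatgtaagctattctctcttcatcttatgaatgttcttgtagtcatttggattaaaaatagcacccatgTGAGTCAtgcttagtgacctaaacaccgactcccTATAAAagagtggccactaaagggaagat
Apoa1: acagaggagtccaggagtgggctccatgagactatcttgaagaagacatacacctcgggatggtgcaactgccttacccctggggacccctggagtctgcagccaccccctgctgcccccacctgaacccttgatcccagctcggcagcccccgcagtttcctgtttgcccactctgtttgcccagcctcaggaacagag
The motifs were those known as the TATA box (letters TATAAA), the CCAAT box, the GC box (letters GGGCGG), the AP-1 site (letters TGACTCA), a STAT site (letters TTCNNNGAA) and an interferon response element (letters GAAANNGAA), searched on both strands. The TATA box and the AP-1 site (which on the other strand reads TGAGTCA) occurred in the windows of Mmp13, Mmp3 and Mmp10, which had ratios on both sides of 0. The shorter windows of Mmp12 and Apoa1 held none of the 6, but they leave out the 16 and 50 bases next to the RefSeq starts. In Mmp13, 2 overlapping matches of the interferon response element lay on the minus strand. The shares that follow are from windows of 250 bases before the RefSeq start. Among 32851 RefSeq promoter windows, 12.4% held the TATA box, 4.46% the AP-1 site, 7.13% the interferon response element, 33.9% the CCAAT box, 32.7% the GC box and 7.02% the STAT site. RefSeq gave 763 windows for 606 of the 719 members, of which 7.08% held the TATA box, 2.88% the AP-1 site and 56.9% the GC box. For the CCAAT box, the STAT site and the interferon response element the shares were 34.1%, 5.50% and 5.64%. The wider set was not limited to genes with reads here, so the shares are not matched for expression. A match is a run of letters and not a shown binding site.

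Across the chromosome, most members were slightly higher under the IRF8 label. Their median log2 ratio (IRF8 over vector, scaled by the trimmed mean of M-values, TMM) was 0.19, a level 14.2% higher, and 566 of 719 members (78.7%) lay above 0. The median of the 11922 genes measured in the same way on the other 18 autosomes was -0.017, with 47.3% above 0, which puts chromosome 9 higher by 0.21 (1.155-fold). Other chromosomes had medians from -0.13 (chromosome 15, 518 genes) to 0.13 (chromosome 16, 416 genes). After chromosome 16, where 70.0% of genes lay above 0, the next was chromosome 7 at 0.014. The members took 5.28% of all counts under the vector label and 5.82% under the IRF8 label.

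**Figure D1:**
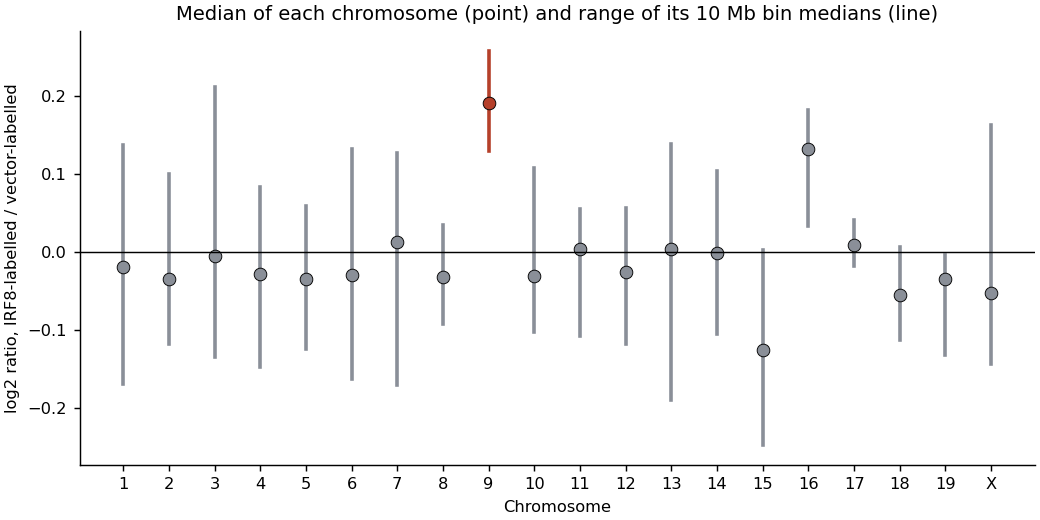
Each point is the median log2 ratio (IRF8-labelled over vector-labelled library) of the measured protein-coding genes of a chromosome, and the line spans the medians of its 10 Mb bins with at least 10 genes. Chromosome 9 (red) has its point at 0.19 and its line from 0.13 to 0.26, and chromosome 16 lies next at 0.13.

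The difference was spread over the whole distribution and did not come from a few genes with large ratios. The 10th percentile of members was -0.17 against -0.41 on the other autosomes, the 25th 0.04 against -0.20, the 75th 0.36 against 0.17 and the 90th 0.60 against 0.44. The distance between the curves was 0.27 at the 5th percentile and 0.13 at the 95th. The interquartile range was 0.32 on chromosome 9 and 0.37 elsewhere. Within 1.5-fold of the chromosome's median lay 646 members (89.8%), compared with 87.8% of genes on the other autosomes around theirs.

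**Figure D2:**
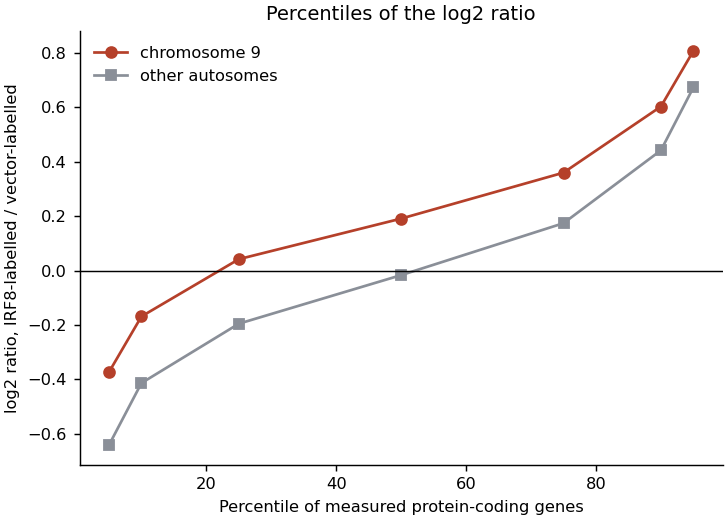
Percentiles (5 to 95) of the log2 ratio for the 719 members (red circles) and for the 11922 genes of the other autosomes (grey squares). The red curve lies above the grey one at every percentile drawn, by 0.27 at the left end and 0.13 at the right.

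Counting intervals, which cover counting error only, lay wholly above 0 for 379 members (52.7%), against 24.1% of all 13073 measured genes. They lay wholly below 0 for 59 members (8.21%), against 27.6% of all genes, and they held the chromosome's own median for 401 members (55.8%). By the rule for large differences, a log2 ratio of at least 1 in size with an interval that leaves out 0, 15 members (2.09%) were higher, against 2.34% of all genes. By the same rule 10 members (1.39%) were lower, against 2.75%. The share of large differences in the higher direction was thus near the background, while the small differences lay mainly on one side. Of the members under 1 CPM in the vector-labelled library, 4 of 10 were among the 15, and of those under 1 CPM in the IRF8-labelled library, 3 of 5 were among the 10.

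The shift was seen at every level of expression. In 4 equal groups of members from the lowest CPM to the highest, the medians were 0.26, 0.21, 0.17 and 0.18, and they exceeded those of the other autosomes' genes in the same CPM range by 0.16, 0.21, 0.20 and 0.23. Genes in 3 groups of short, middle and long exon length exceeded theirs by 0.21, 0.21 and 0.20. Medians were 0.18 for genes on the plus strand and 0.19 on the minus strand. Families that have members on many chromosomes, grouped by symbol after earlier values were seen, showed the same order. The 18 zinc finger genes named Zfp had a median of 0.36, with 17 of 18 above 0, compared with 0.13 for 302 such genes elsewhere. The 8 Ccdc genes had 0.25 against 0.04, the 9 Tmem genes 0.19 against 0.04, the 13 solute carriers 0.098 against -0.018 and the 9 Rpl and Rps genes -0.045 against -0.18.

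Transcripts of the chromosome that the choice of members did not use gave a less even picture. All 152 further rows, non-coding genes at a mean of 1 CPM and protein-coding genes under it with at least 10 counts, had a median of 0.25, with 92 of 152 above 0. Such rows on the other autosomes had 0.051, with 53.2% above 0 against 60.5% on chromosome 9. Protein-coding genes under 1 CPM (77 rows) had 0.28 against 0.0031 elsewhere. Of the 75 non-coding rows 48 (64.0%) lay above 0, compared with 55.8% elsewhere, and the median was 0.24 against 0.065. Without those that overlap a protein-coding gene, 37 rows remained with a median of 0.10 against 0.052. Of these 54.1% lay above 0, no more than the 54.9% elsewhere. Antisense genes (17 rows) had 0.50 against 0.078, and since the kit named in the labels does not mark strand their reads cannot be told apart from those of the genes opposite. The 20 processed pseudogenes went the other way, with -0.19 against -0.024. The pseudogene Gm10123 had 8301 counts under the vector label and 2547 under the IRF8 label (log2 ratio -1.52), and Gm6166 had 1088 and 382 (-1.32), 2 rows named after their values were seen whose reads can come from near-identical copies elsewhere.

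By its median, no 10 Mb segment stood apart from the rest. In 13 consecutive bins of 10 Mb the medians ran from 0.13 in the second bin (29 members) to 0.26 in the ninth (30 members, 27 above 0). All 13 were above 0, and 0 of 13 lay 0.1 or more from the chromosome's median, against 9.38% of the 224 bins of the other autosomes around their own. Of those 224 bins, with medians from -0.25 to 0.21, 9 (4.02%) reached the lowest bin of chromosome 9, and 5 of the 9 were on chromosome 16. All 8 bins of chromosome 16 were above 0 as well, from 0.033 to 0.18. By the mean of members in place of the median, 1 bin departed, that from 40 to 50 Mb, which holds Apoa1 (mean 0.068). In runs of 25 consecutive members the medians of 28 runs lay between 0.081 and 0.30, all above 0. By the same limit of 0.1, 2 of the 28 runs departed. These were the run from Zfp317 to Kri1, with a median of 0.30 and 22 of 25 members above 0, and that from Lrrc49 to Megf11, at 0.081. No share of such runs on the other autosomes is given here.

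**Figure D3:**
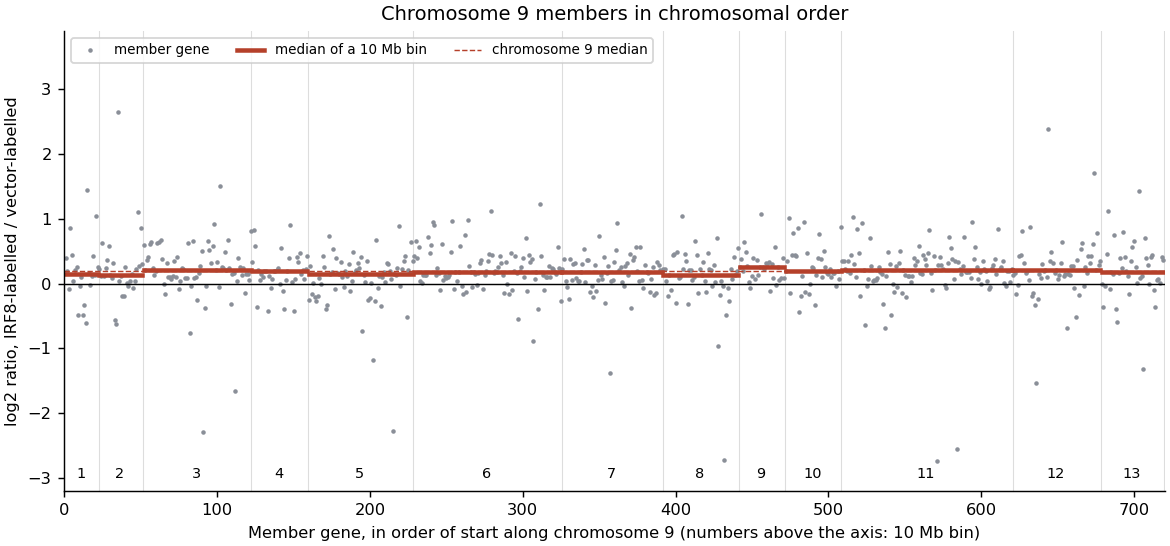
Log2 ratio of the 719 members (grey points) in order of start along chromosome 9, with the median of each of 13 numbered 10 Mb bins (red bars), the chromosome median of 0.19 (dashed) and a line at 0. All 13 bars lie above 0, from 0.13 in bin 2 to 0.26 in bin 9, and single members reach -2.74 and 2.65.

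In 5 Mb bins, 3 of 22 departed by 0.1 or more, against 16.4% of 354 such bins elsewhere, so their number is near the background. From 60 to 65 Mb the median of 29 members was 0.081. Hacd3, an enzyme of very long-chain fatty acid synthesis, had 3465 counts under the vector label and 2489 under the IRF8 label there (log2 ratio -0.29, interval -0.37 to -0.22). Kif23, a kinesin of cell division, had 1123 and 837 (-0.24), whereas Smad3, which carries TGF beta signals to the nucleus, had 2957 and 3349 (0.36).

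From 75 to 80 Mb the median of 23 members was 0.045, and the longest stretch of members below 0 lay there. It held 5 consecutive members, Ick, Gsta4, Mb21d1, Mto1 and Eef1a1 (78109192 to 78489151). Their log2 ratios were -0.04, -2.72, -0.49, -0.07 and -0.26, and for Ick, Mb21d1 (the DNA sensor cGAS) and Mto1 the intervals held 0. From 90 to 95 Mb the median of 10 members was 0.44. The phospholipid scramblase genes Plscr1, Plscr2 and Plscr4 lie side by side there, with 4019, 1346 and 354 counts under the vector label and 4815, 2040 and 426 under the IRF8 label. Their log2 ratios were 0.44, 0.78 and 0.45, with intervals above 0, but as relatives in one family they may share reads. The longest stretch above 0 held 21 members from Usp28 to Ppp2r1b (48985375 to 50894229). The genes named in these bins were chosen after their values were seen.

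Among the higher members with at least 5 CPM were genes of the cell surface and of cell junctions. Cspg4, the NG2 proteoglycan found on pericytes and on some tumour cells, had 589 and 1132 counts, 2.18-fold higher (1.97 to 2.42). Its 5 neighbours within 100 kb had a median log2 ratio of 0.19, the value of the whole chromosome.

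Cgnl1, a scaffold protein of tight junctions, had 2177 counts under the vector label and 3937 under the IRF8 label, 2.05-fold higher (1.95 to 2.17). With 108 and 227 CPM it had the most reads of the 15 higher members. Entpd3, an enzyme that breaks down extracellular nucleotides, had 337 and 648 counts, 2.18-fold higher (1.91 to 2.5). Naalad2, a peptidase, had 102 and 196 (2.18-fold, 1.71 to 2.80), and Insyn1, a protein of inhibitory synapses, had 75 and 157 (2.38-fold, 1.79 to 3.17). All 4 had intervals that leave out both 0 and the chromosome's median.

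Just under the rule lay Acsbg1, an acyl-CoA synthetase, with 1028 and 1799 counts (log2 ratio 0.99, interval 0.88 to 1.10), and Paqr9 with 321 and 551 (0.96). Klhdc8b had 162 and 279 (0.96), and overlaps Ccdc71 on the opposite strand, which had a ratio of 0.38. Besides Ky, a muscle gene, 6 members met the rule with under 70 counts in each library: Trpc6, a calcium channel (28 and 53), 1700012B09Rik (4 and 32), Cnn1, calponin of smooth muscle (13 and 36), Rwdd2a (20 and 39), Susd5 (7 and 40) and Tmem42 (23 and 58). Named after their values were seen, they have wide intervals, as in 1700012B09Rik, at a log2 ratio of 2.65 with an interval from 1.69 to 5.14.

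The 10 lower members included Gsta4 and Mst1 of the liver list described below, and Apoa1 of the apolipoprotein list. Apoa1, which forms the body of high-density lipoprotein particles (46228580 to 46230466, plus strand), had 2205 counts (109 CPM) under the vector label and 398 (23.0 CPM) under the IRF8 label, 4.88-fold lower (4.38 to 5.44). Its neighbours Sik3, Zpr1 and Bud13 had log2 ratios of 0.08, 0.15 and 0.13, and the other 3 genes of its cluster were under 1 CPM. Gsta4, a glutathione transferase of lipid peroxidation products, had 439 and 57 counts, 6.78-fold lower (5.14 to 9.10). Slc38a3, a glutamine transporter of the liver, had 210 and 26, 7.11-fold lower (4.72 to 11.1), while its 10 neighbours within 100 kb had a median log2 ratio of 0.33.

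Angptl8, a secreted regulator of lipoprotein lipase, had 131 and 22 counts (log2 ratio -2.30, interval -3.11 to -1.73). Mst1, which encodes macrophage-stimulating protein, had 37 and 4 (-2.55, -4.97 to -1.55) and overlaps Rnf123, so a few reads set its value. Clec3b, the plasma protein tetranectin, had 224 and 78 counts, 2.53-fold lower (1.95 to 3.31). The other 4 that met the rule were Bmper, a binding protein of bone morphogenetic proteins, with 87 and 23, Mpzl2, an adhesion molecule, with 88 and 33, Igdcc3 with 33 and 10, and Rtp3 with 37 and 10. Angptl8, Bmper, Mpzl2, Igdcc3 and Rtp3 were named after their values were seen. Since the chromosome's median is above 0, the rule itself places all 10 lower members 2-fold or more below it.

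Measured from the chromosome's own median instead of 0, 7 members (0.974%) were 2-fold or more higher with an interval that leaves out that median, against 2.41% of genes around the medians of their own chromosomes. Among them were Mmp10, 1700012B09Rik, Cnn1, Insyn1, Susd5 and Tmem42. In the other direction there were 12 (1.67%, against 2.73%), the 10 above with Gclc and Islr2. Gclc, the catalytic subunit of the first enzyme of glutathione synthesis, had 1258 and 567 counts, 1.95-fold lower (1.77 to 2.16). Islr2 had 27 and 12 (log2 ratio -0.89), with an interval from -2.10 to 0.044 that holds 0.

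**Figure D4:**
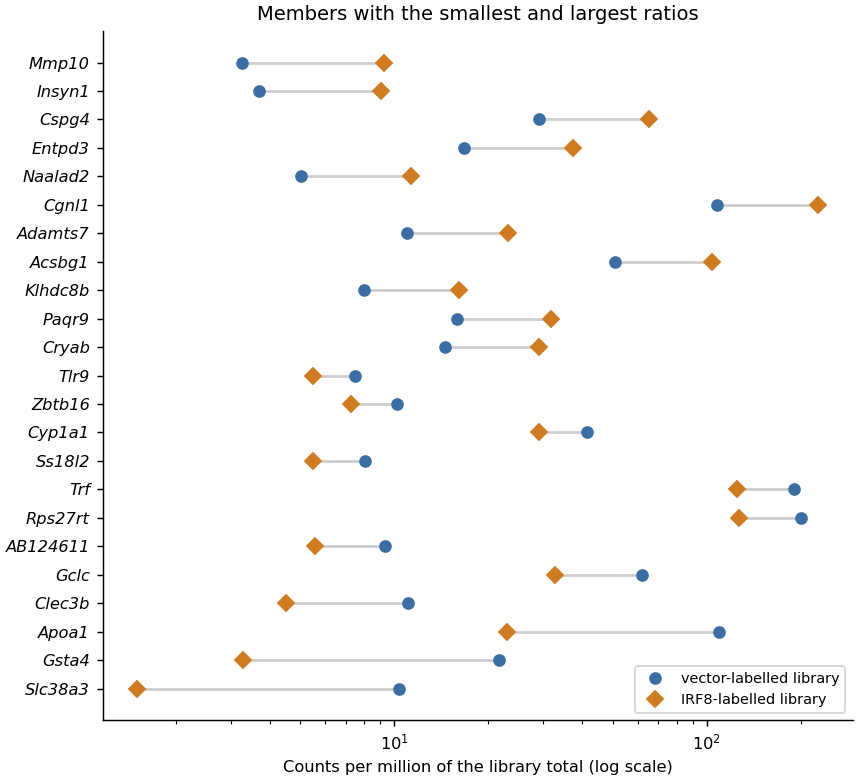
CPM (log scale) in the vector-labelled library (circles) and the IRF8-labelled library (diamonds) for members among the 12 smallest and the 12 largest log2 ratios at a mean of at least 5 CPM, 1 of which is not shown. Wide gaps are those of Slc38a3 (10.4 and 1.5 CPM), Gsta4 (21.7 and 3.29) and Apoa1 (109 and 23.0) at the bottom and Mmp10 (3.26 and 9.30) at the top.

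Liver genes as a list of 24 had 18 members with a median of -0.065, against 0.19 for the chromosome. Of the 18, 2 were lower by the rule and 0 higher, with intervals above 0 for 5, below 0 for 8 and holding 0 for 5. Trf, the plasma iron carrier transferrin, had 3827 counts under the vector label and 2154 under the IRF8 label, 1.56-fold lower (1.48 to 1.65). Cyp1a1, a cytochrome P450 induced by aromatic hydrocarbons, had 834 and 503 (1.46-fold lower, 1.3 to 1.63). In the other direction Acaa1a, a peroxisomal enzyme of fatty acid breakdown, had 1523 and 1812 counts (log2 ratio 0.43). Hepatocyte markers over all chromosomes summed to 8677 CPM under the vector label and 3732 CPM under the IRF8 label, and Itih3, Apoc3 and Cyp8b1 were at 0 in the latter. In RNA of whole tumours, fewer cells of a type and less RNA in each cell cannot be told apart.

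Muscle genes lay at the other end, with a median of 0.95 over 5 members of 10 listed, of which 2 were higher and 4 had intervals above 0. Among these were Ky, a peptidase of muscle, with 34 and 63 counts (log2 ratio 1.03), Cryab, a small heat shock protein abundant in heart and muscle, with 294 and 502 (0.95), and the tropomyosin gene Tpm1 with 7308 and 7685 (0.26). Hspb2, which lies head to head with Cryab and overlaps it, had 18 and 25 (0.60, interval -0.27 to 1.62). Skeletal muscle markers over all chromosomes summed to 30.7 CPM under the vector label and 418 CPM under the IRF8 label, and their part in the 5 values was not tested.

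Within the proximal metalloprotease cluster, neighbouring genes differed in opposite directions. Mmp13, an interstitial collagenase, had 5130 counts under the vector label and 3238 under the IRF8 label (log2 ratio -0.48, interval -0.54 to -0.42). Mmp12, the elastase of macrophages, had 7910 and 5550 (-0.33, -0.38 to -0.28), and Mmp3, stromelysin 1, had 91 and 52 (-0.61, -1.14 to -0.12). Mmp10, stromelysin 2, lies next to Mmp3 and had 66 and 161, 2.77-fold higher (2.07 to 3.75). These were 4 of 9 cluster genes listed, with a median of -0.40. The macrophage marker list summed to 1389 and 1443 CPM.

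Genes of the lysosome and surface protease list, which also holds the hyaluronidase gene Hyal1, mostly lay higher. The list had 9 members of 14, with a median of 0.48, 8 intervals above 0 and 0 below. Adamts7, which cleaves cartilage oligomeric matrix protein, had 223 and 400 counts (log2 ratio 1.02) and overlaps Tbc1d2b on the other strand, itself at -0.14. Adamts15, which cleaves proteoglycans, had 159 and 251 (0.83). The hyaluronidase gene Hyal1 had 63 and 100 (0.83) and overlaps Nat6, itself at 0.17. St14, the membrane protease matriptase, was the only member of the list below 0, with 84 and 57 (-0.36, interval -0.89 to 0.13).

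Adhesion molecules (7 members of 10) had a median of 0.34, with 5 intervals above 0 and 1 below. Thy1, carried by T cells and by fibroblasts, had 2395 and 3527 counts (log2 ratio 0.74, interval 0.67 to 0.82). Jam3, of cell junctions, had 25 and 40 (0.81), and Nectin1, an adhesion molecule of epithelia, had 325 and 228 (-0.32). In the TGF beta list all 5 members lay above 0, with 4 intervals above 0 and a median of 0.36. Smad6, an inhibitor of the pathway, had 590 and 670 (0.37), and the type II receptor gene Tgfbr2 had 3119 and 3021 (0.14).

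Medians of the immune gene lists lay nearer to 0 than that of the chromosome, though single genes lay farther from 0 on both sides. The T cell and lymphocyte list (8 members of 10) had a median of -0.10, with 3 intervals above 0 and 2 below under TMM and 0 below with column totals. Cd3g and Cd3d, subunits of the T cell receptor complex, had 311 and 181 counts under the vector label and 230 and 136 under the IRF8 label (log2 ratios -0.25 and -0.23). Their intervals were -0.50 to -0.00064 for Cd3g and -0.56 to 0.10 for Cd3d. Cd3e, a subunit of the same complex that lies beside them, had a log2 ratio of 0.01. Eomes, a transcription factor of effector T and natural killer cells, had 53 and 32 (-0.52, interval -1.22 to 0.12). T cell markers over all chromosomes had a median log2 ratio of -0.29 over 13 genes. They summed to 272 and 325 CPM with Thy1 and to 153 and 122 CPM without it, an alternative added after the data were seen.

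Chemokine receptor genes had 8 members of 15, with a median of -0.00025, which becomes 0.039 with column totals, and 7 of the 8 intervals held 0. The exception was Cx3cr1, the fractalkine receptor of monocytes and macrophages, with 327 and 498 counts (log2 ratio 0.79, interval 0.59 to 1.00). Its span overlaps Wdr48, Csrnp1, Gorasp1, Xirp1 and 1700019L13Rik, with up to 1941 counts, and their part in its value was not tested. Ccr2, a receptor of inflammatory monocytes, had 541 and 500 (0.07, interval -0.11 to 0.25). Xcr1, a receptor of conventional dendritic cells, had 46 and 31 (-0.37, interval -1.09 to 0.30). Among inflammatory caspases and Il18 all 4 members lay above 0, with a median of 0.12 and intervals above 0 for Casp4 and Casp12. Zbtb16 and Tlr9 were among the 12 smallest ratios: the first, the factor PLZF of innate-like lymphocytes, had 206 and 126 (-0.52), and the second, the endosomal receptor for microbial DNA, had 152 and 95 (-0.49). The granule protein list of neutrophils had 0 members of 4.

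Signalling genes lay close to the chromosome's median. Of 21 signalling genes (22 listed), 18 had intervals above 0 and 0 below, with a median of 0.18. Ctnnb1, which encodes beta-catenin, had 10330 counts in both libraries (log2 ratio 0.18 after scaling), and Rhoa, a GTPase of the cytoskeleton, had 4928 and 4899 (0.18). Ppp2r3a, a regulatory subunit of a phosphatase, had 343 and 410 (0.44), the largest of the list. Yap1, the transcriptional coactivator of the Hippo pathway, had 2601 and 3088 (0.43), while Birc2 in the same region, an inhibitor of apoptosis, had 1441 and 1251 (-0.02, but 0.02 with column totals). The list of Yap1 and its neighbours had a median of 0.14 over 4 members, with 2 intervals above 0.

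Cell division and repair genes (23 members of 24) had a median of 0.094, with 5 intervals above 0, 4 below and 14 that held 0. Chek1, a kinase of the DNA damage checkpoint, had 247 and 166 counts (log2 ratio -0.39), Ccnb2, a mitotic cyclin, had 736 and 565 (-0.20), and Dnmt1, which maintains DNA methylation, had 2614 and 2048 (-0.17). Kif23, given above, was the fourth with an interval below 0. On the other side Setd2, a histone methyltransferase, had 2159 and 2378 (0.32). Respiratory chain genes (8 members) had a median of 0.13, with 4 intervals above 0 and 1 below, that of Cox5a, a subunit of cytochrome oxidase, with 1256 and 986 counts (-0.16). Glycolysis and redox genes (12 members of 13) had 0.088, with 6 intervals above 0 and 2 below, those of Gclc and of Idh3a, a subunit of a citric acid cycle enzyme, with 1556 and 1246 (-0.14).

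The 6 members that took the most reads lay at or under the chromosome's median. Eef1a1, the main elongation factor of translation, had 153760 counts under the vector label and 112691 under the IRF8 label (log2 ratio -0.26, interval -0.28 to -0.25). Pkm, pyruvate kinase, had 36585 and 36502 (0.18), and Hspa8, a constitutive chaperone, had 31721 and 28063 (0.0073, but -0.015 with DESeq2 size factors). The ribosomal protein genes Rpl4, Rpsa and Rplp1 had log2 ratios of -0.034, -0.032 and -0.045, of which the first and the second turn positive with column totals (0.0055 and 0.0081). These 6 made up 27.7% of all counts of members, and the summed counts of the members differed by a log2 ratio of 0.10 with them and 0.18 without them. All 7 ribosomal protein members on the list had a median of -0.045, which stays below 0 with column totals (-0.0053), with 5 intervals below 0 by TMM, 1 by column totals and 6 by DESeq2 size factors. Rps27rt, a retrotransposed copy of Rps27 inside Osbpl10, had 4036 and 2198 (log2 ratio -0.69), and its reads can be shared with the parent gene.

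**Figure D5:**
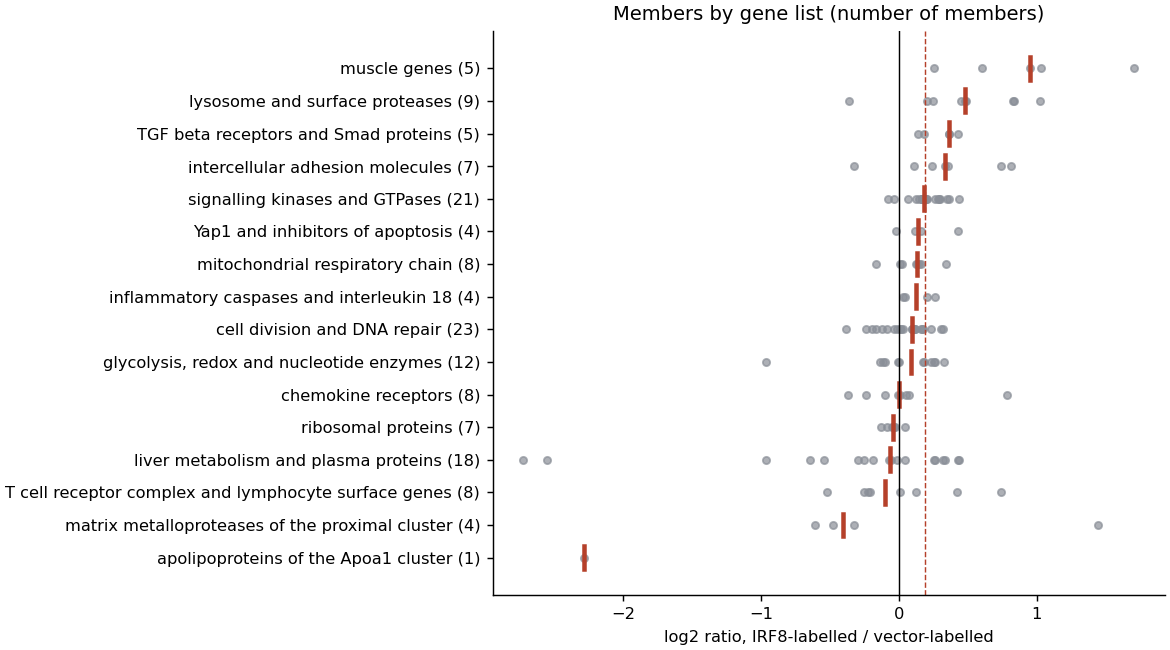
Log2 ratio of members by gene list (grey points, number of members in brackets), with the list median (red bar), 0 (black line) and the chromosome median of 0.19 (dashed). Muscle genes (0.95) and the lysosome and surface protease list (0.48) have medians to the right of the dashed line, and liver genes (-0.065), lymphocyte genes (-0.10) and metalloproteases (-0.40) to the left of 0.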

How the data were processed

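Gene counts were deposited for both tumours in one table with symbols, biotypes, exon lengths and coordinates, per the file headers. Per the submitters' processing notes, the build was mm10 and the tools were HISAT2 2.0.5 and featureCounts 1.5.0-p3. Per the labels' protocols, libraries were prepared from Trizol RNA with NEBNext Ultra. For reads mapping to several places, the treatment is not given in the sources used. The members and gene lists were chosen with earlier results of these data known.

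Ratios were computed with edgeR 4.0.16 (R 4.3.3) by TMM scaling with a prior count of 2, and folds from scaled counts without it. Intervals are 95% Clopper-Pearson intervals of a gene's split between the libraries and cover counting error only, since PCR copies were not marked. Members had a median of 541 counts under the vector label and 551 under the IRF8 label, and 52 had under 100 counts in both libraries together. A bin of 10 Mb or of 5 Mb needed at least 10 members and departed at 0.1 or more from the chromosome's median. Named genes were the 12 largest and 12 smallest ratios at 5 CPM, the 6 members with the most reads, up to 4 members of each list farthest from the chromosome's median, and the rows at the threshold. Other genes are marked as chosen after their values were seen, except those given as neighbours, as members of a counted set or as examples of a list. The steps were tested on simulated data. Alternatives were column totals, DESeq2 1.42.0 size factors, other filters, a prior count of 0.5, a thinned vector library, all biotypes, and the lists' genes left out. Values of 2 members are not reported here.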

Additional observations from a re-analysis of the deposited data

How the results depend on the processing

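The chromosome 9 median was 0.2311 with column totals and 0.16934 with DESeq2 size factors, and the offset from the other autosomes stayed between 0.19 and 0.21 under all alternatives run. All 13 bins of 10 Mb were above 0 in each. Members below 0 were 17.8% with column totals and 26.6% with no filter beyond 1 count. Members higher by the rule numbered 34 with no filter and 8 at 5 CPM, and those lower numbered 26 and 4, since these settings add or drop genes of few counts. Segments that departed numbered 1 by the mean of members, 3 in 5 Mb bins and 2 in runs of 25. Among 79 named genes, 6 with ratios near 0 changed sign. Rpl4 (0.0055), Rpsa (0.0081), Birc2 (0.020) and Mras (0.0070) became positive with column totals. Hspa8 (-0.015) and Sdhd (-0.010) became negative with DESeq2 size factors, and Hspa8 also with the thinned library (-0.00065). No paired analysis was possible because each group has 1 library, and for the same reason no library could be left out. DNA was not measured here, and host and tumour reads could not be separated.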
